A study of Mus musculus with 6 samples.

Results

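The TNF and TNF receptor superfamily comprises the cytokine TNF, its related ligands and their receptors. Its genes were found in the deposited count table by symbol, as all Tnfsf and Tnfrsf symbols followed by a digit and 13 further members with other names (Tnf, Lta, Ltb, Ltbr, Cd40, Cd40lg, Cd27, Cd70, Fas, Fasl, Eda, Edar and Eda2r). This gave 45 of the 48440 genes of the table. They were 18 ligand genes, 26 receptor genes and the antisense RNA gene Tnfsf13os. At least 10 counts in 3 or more samples were reached by 37 of the 45 members, and 15115 genes of the whole table passed the same filter.

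The ligands are mostly trimers anchored in the membrane of immune and stromal cells, and proteases release several of them. Their receptors signal through TRAF adaptors to NF-kB or, where they carry a death domain, also to caspases. In bone and cartilage the family is best known for RANKL, which drives osteoclast formation through its receptor RANK, and for osteoprotegerin, the soluble decoy receptor that binds RANKL.

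RNA was sequenced from the murine subcutaneous tissues around rabbit BMSCs-engineered cartilage (BEC), with 3 samples in the 0%-Axitinib group and 3 samples in the 3%-Axitinib group. In both groups BEC had been wrapped in an electrospun PCL/collagen membrane and implanted under the skin of BALB/c nude mice, and tissue was taken at week 12. The membrane held 0% or 3% axitinib, an inhibitor of VEGF receptors, by weight of PCL and collagen. The labels call the 0%-Axitinib samples untreated. Nude mice have no functional thymus and therefore very few mature T cells, while B cells, NK cells and myeloid cells are present. More than 1 construct was placed in each mouse, and which samples came from 1 mouse is not given in the labels. Thus n counts samples and the p-values measure only the spread between these samples.

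Reads counted on genes numbered 17761968, 16716411 and 18005908 in 0%-Axitinib replicates 1, 2 and 3, and 9225518, 11686084 and 18403795 in 3%-Axitinib replicates 1, 2 and 3. Unmapped reads made up 5.47%, 3.84% and 14.9% of the 0%-Axitinib libraries and 48.4%, 29.2% and 16.8% of the 3%-Axitinib libraries. The share was higher in each 3%-Axitinib sample than in each 0%-Axitinib sample. The paper describes samples harvested with mouse tissue entangled and reads mapped to the mouse genome, so the libraries may hold rabbit RNA of BEC. Its part in the unmapped reads, or in counts on mouse genes such as those of cartilage and bone, was not tested. Expression is given as CPM, counts scaled to library totals, after TMM normalization. A count of 3, taken as the limit of detection, was worth between 0.163 and 0.325 CPM before this normalization, and it covers counting error only.

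Several libraries stood apart by the markers of cell types. 0%-Axitinib replicate 3 had a summed level of 339.6 CPM over the 10 B cell genes, against 9.81 and 15.3 CPM in 0%-Axitinib replicates 1 and 2 and between 2.43 and 4.19 CPM in the 3%-Axitinib samples. The same sample had 28902 CPM over the 9 neutrophil genes, of which S100a9 was the most abundant, and the other samples had between 72.5 and 188 CPM. Its 14 T cell genes summed to 321 CPM, against 15.0 and 43.8 CPM in the other 0%-Axitinib samples and 7.71, 10.7 and 5.04 CPM in the 3%-Axitinib samples. The T cell genes were thus detected in these nude mice and were highest in this sample.

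The 25 skeletal muscle genes, led by Acta1, summed to 19643, 50.6 and 10808 CPM in 3%-Axitinib replicates 1, 2 and 3, and to 229, 35.5 and 41.4 CPM in the 0%-Axitinib samples. 3%-Axitinib replicates 1 and 3 therefore stood apart from the other 4 samples. 3%-Axitinib replicate 2 had the highest sum of the 10 osteoblast genes, 43246 CPM, and the other samples had between 3491 and 11711 CPM. 0%-Axitinib replicate 2 had 1033 CPM over the 13 keratinocyte and hair follicle genes, and the other samples had at most 10.9 CPM. In these bulk tissues, fewer cells of a type and less RNA per cell cannot be told apart.

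The groups were compared to ask how the tissue around BEC responded to the drug. More members were lower than higher. The criterion of the study asks for a change of at least 1.5-fold and a p of 0.05 or less, here the unadjusted p of edgeR's quasi-likelihood test. By this criterion, 10 of 37 tested members (27%) were lower in the 3%-Axitinib group, against 11.8% of all tested genes, and 4 (10.8%) were higher, against 9.54% of all tested genes. The filter fixed part of the lower count in advance: Cd27 and Tnfrsf18 reached 10 counts in each 0%-Axitinib sample and in no 3%-Axitinib sample, so they entered the test because of their level in the 0%-Axitinib group. With such genes set aside, 8 of 35 members (22.9%) were lower and 4 (11.4%) were higher, against 10.9% and 9.54% of 14877 genes. The share of lower members stayed above the background and that of higher members was near it. The median log2 fold change of the 37 members was -0.47, and that of all tested genes was -0.03. The median of the members lay between -0.70 and -0.30 when each sample was left out, and it was -0.23 with limma-voom, -0.25 with the replicate number as a block and -0.80 for the members tested without a filter. The lower members were Ltb, Cd27, Tnfrsf18, Tnfsf10, Tnfsf8, Tnfrsf25, Tnf, Tnfrsf10b, Tnfrsf14 and Tnfrsf21. The higher members were Tnfsf9, Tnfrsf23, Tnfrsf12a and Ltbr.

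Values of the groups did not overlap for 10 members that were lower (27%, against 16.7% of all tested genes) and 4 that were higher (10.8%, against 14.6%). The 10 lower members include Cd27 and Tnfrsf18, which entered the test through the 0%-Axitinib group alone, so the filter largely set their separation. This count was not repeated with such genes set aside. With Benjamini-Hochberg adjustment, edgeR's quasi-likelihood test called 0 members at an adjusted p of 0.05 or less, and 1 gene of the whole table (0.00662%). The lowest adjusted p of a member in this edgeR test was 0.0957, for Tnfsf10. An unadjusted p of at most 0.05 was reached by 15 members (40.5%) and by 3563 of all tested genes (23.6%) in the same test. Cd27 and Tnfrsf18 are among these 15 members, and no count without genes of this kind was made. DESeq2's Wald test called 9 members (24.3%), Cd27 among them, at an adjusted p of 0.05 or less, beside 1971 of all tested genes (13%). Limma-voom called 0 members and 2 of all tested genes at this adjusted p. Without 0%-Axitinib replicate 3, the quasi-likelihood test called 4 members (Tnfsf10, Tnfsf8, Tnfrsf23 and Tnfrsf11a), beside 1556 of all tested genes (10.3%).

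Leaving out a sample moved the count of lower members by the criterion to between 4 and 9, and the background moved as well. With 3%-Axitinib replicates 1, 2 and 3 left out, 4, 5 and 6 members were lower (10.8%, 13.5% and 16.2%), against 8.2%, 9.41% and 8.47% of all tested genes. The count of higher members lay between 2 and 6, with 2 without 3%-Axitinib replicate 1 (5.41%, against 6.85% of all tested genes) and 6 without 0%-Axitinib replicate 3 (16.2%, against 14.5%). Scaling by total counts in place of TMM moved the median of all tested genes by -0.13 on the log2 scale. With it, 2455 tested genes were lower and 967 were higher by the criterion, in place of 1779 and 1442, and the members gave 12 and 3.

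**Figure D1:**
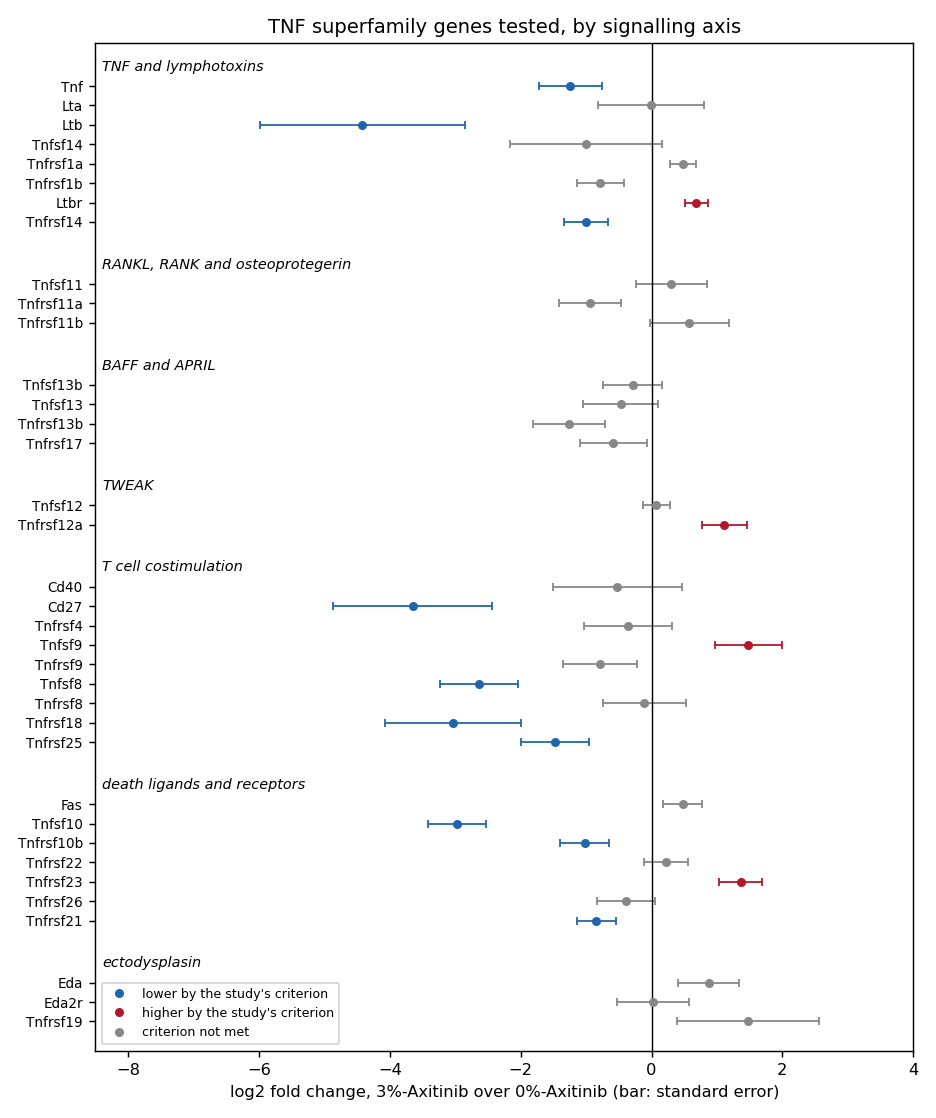
Log2 fold change (3%-Axitinib over 0%-Axitinib, horizontal axis) of the 36 tested ligand and receptor genes, grouped by signalling axis, each point with its standard error (SE) from edgeR's quasi-likelihood fit of 3 samples per group. Blue points are lower and red points are higher by the criterion (1.5-fold or more, unadjusted p of 0.05 or less), and the widest bar is that of Ltb, at -4.42 with an SE of 1.56.

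By mean level per kilobase of exon, Tnfrsf1a was the highest member in both groups. Tnfrsf1a, the broadly expressed TNF receptor with a death domain, had 79.4 ± 2.51 CPM per kb (SD, n = 3) without axitinib and 111 ± 7.48 CPM per kb with 3% axitinib. Tnfrsf1b, the TNF receptor of leukocytes and endothelium, had 67.9 ± 25.1 CPM per kb (SD, n = 3) and 39.4 ± 12.6 CPM per kb in these groups. The levels of this pair of receptors were within their spread of each other in the 0%-Axitinib group and were apart in the 3%-Axitinib group. Ltbr, the lymphotoxin beta receptor of stromal cells, had 35.1 ± 3.47 CPM per kb without axitinib and 56.3 ± 3.02 CPM per kb with 3% axitinib (SD, n = 3). The ligand Ltb came between Tnfrsf1b and Ltbr in the 0%-Axitinib group, with a mean of 49.1 ± 78.8 CPM per kb (SD, n = 3) that was set by a single sample. Among ligands, Tnfsf12 was led only by Ltb in the 0%-Axitinib group, with 31.4 ± 6.61 CPM per kb (SD, n = 3), and it was the highest ligand of the 3%-Axitinib group, with 32.9 ± 2.21.

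All 26 receptor genes together summed to 882, 1047 and 784 CPM in the 0%-Axitinib samples and to 896, 811 and 924 CPM in the 3%-Axitinib samples. The sums overlapped between the groups, and Tnfrsf1a and Tnfrsf1b carried between 46.5% and 54.0% of each. The 18 ligand genes summed to 134, 125 and 362 CPM in the 0%-Axitinib samples and to 108, 120 and 104 CPM in the 3%-Axitinib samples. The ligand sum of 0%-Axitinib replicate 3 stood above the rest. Ltb was the most abundant ligand by CPM in that sample, and Tnfsf12 in each of the others.

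Among the ligands of the TNF and lymphotoxin axis, Tnf, the founding inflammatory cytokine, was at 9.44, 9.43 and 22.2 CPM in 0%-Axitinib replicates 1, 2 and 3 and at 6.94, 3.28 and 7.12 CPM in 3%-Axitinib replicates 1, 2 and 3. Each 3%-Axitinib sample was below each 0%-Axitinib sample, and 0%-Axitinib replicate 3 was the highest. Its log2 fold change, with its standard error (SE), was -1.24 (SE 0.48), with an adjusted p of 0.183 in edgeR's quasi-likelihood test with Benjamini-Hochberg adjustment. Without 0%-Axitinib replicate 3 it was -0.70, and the criterion was no longer met. It was not met either without each of the 3%-Axitinib samples, at log2 fold changes between -1.42 and -0.95, or with limma-voom, at -1.17 (unadjusted p 0.0567).

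Ltb, the membrane partner of lymphotoxin alpha that is made mainly by lymphocytes, was at 4.64, 6.17 and 212 CPM in the 0%-Axitinib samples and at 2.75, 5.56 and 2.14 CPM in the 3%-Axitinib samples. A single sample, 0%-Axitinib replicate 3, stood far above the rest, and the groups overlapped. The log2 fold change was -4.42 (SE 1.56), and without this sample it was -0.64, with the criterion no longer met. The criterion was also missed without each of the 3%-Axitinib samples, at log2 fold changes between -4.91 and -4.13, with limma-voom, at -2.55, and with the replicate number as a block, at -2.09, while DESeq2 gave no p for this gene. In the B cell list, 6 of 6 tested genes were lower by the criterion (median log2 fold change -4.83, with 3 lower by DESeq2 and 1 by limma-voom), but 4 of them passed the filter through the 0%-Axitinib group alone, so that the filter largely set their direction. The most abundant, Cd79a, was at 1.67, 2.33 and 101 CPM in the 0%-Axitinib samples and at 0.661, 0.547 and 0.521 CPM in the 3%-Axitinib samples. No gene of that list was at 0 in all samples, and the part of B cell RNA in the values of Ltb was not tested.

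Lta, which encodes lymphotoxin alpha, lies beside Tnf and Ltb on chromosome 17 (chr17:35203165-35205351 for Lta, chr17:35199381-35202007 for Tnf and chr17:35194439-35196320 for Ltb, all GRCm38). It was at 0.417, 1.40 and 2.72 CPM in the 0%-Axitinib samples and at 0.881, 0.730 and 2.78 CPM in the 3%-Axitinib samples. Its groups had nearly the same range. Tnfsf14 (LIGHT), a ligand of Ltbr and of Tnfrsf14, was at 0.835, 0.815 and 16.2 CPM in the 0%-Axitinib samples and at 2.86, 4.38 and 1.74 CPM in the 3%-Axitinib samples. Without 0%-Axitinib replicate 3 its log2 fold change was 1.84 (SE 0.53), while with all samples it was below 0 (SE 1.17), so that this sample set its direction.

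Of the receptors in this axis, Ltbr was at 87.4, 87.1 and 73.1 CPM in the 0%-Axitinib samples and at 130, 141 and 127 CPM in the 3%-Axitinib samples. All 3%-Axitinib samples were above all 0%-Axitinib samples, and the spread within each group was small. The log2 fold change was 0.68 (SE 0.18), with an adjusted p of 0.107 in edgeR's quasi-likelihood test with Benjamini-Hochberg adjustment. It lay between 0.60 and 0.73 when each sample was left out and met the criterion each time. With total-count scaling it was 0.55, below the fold of the criterion.

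Tnfrsf1a was at 213, 203 and 201 CPM in the 0%-Axitinib samples and at 301, 265 and 295 CPM in the 3%-Axitinib samples. The groups did not overlap, and the 3%-Axitinib samples were higher. Its log2 fold change of 0.48 (SE 0.19) was below the fold of the criterion, at an unadjusted p of 0.0432 in the quasi-likelihood test. Tnfrsf1b was at 259, 355 and 164 CPM in the 0%-Axitinib samples and at 134, 113 and 205 CPM in the 3%-Axitinib samples. 3%-Axitinib replicate 3 was above 0%-Axitinib replicate 3, so the groups overlapped, and the log2 fold change of -0.78 (SE 0.36) missed the criterion at an unadjusted p of 0.0670. Without 0%-Axitinib replicate 3 it was -1.03 and met the criterion, as it did at -1.08 without 3%-Axitinib replicate 3, at -0.92 with total-count scaling and at -0.79 in DESeq2's Wald test. It was nearer 0 without 0%-Axitinib replicate 2 (-0.49), 3%-Axitinib replicate 1 (-0.71) or 3%-Axitinib replicate 2 (-0.62).

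Tnfrsf14 (HVEM), a receptor of leukocytes for LIGHT and BTLA, was at 11.9, 12.5 and 23.2 CPM in the 0%-Axitinib samples and at 8.81, 6.48 and 8.45 CPM in the 3%-Axitinib samples. The 3%-Axitinib samples lay below, and 0%-Axitinib replicate 3 was the highest of all. The log2 fold change was -1.003 (SE 0.34), and it was -0.62 without that sample, still past the criterion. Without 3%-Axitinib replicate 2 it was -0.87 and the criterion was missed.

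**Figure D2:**
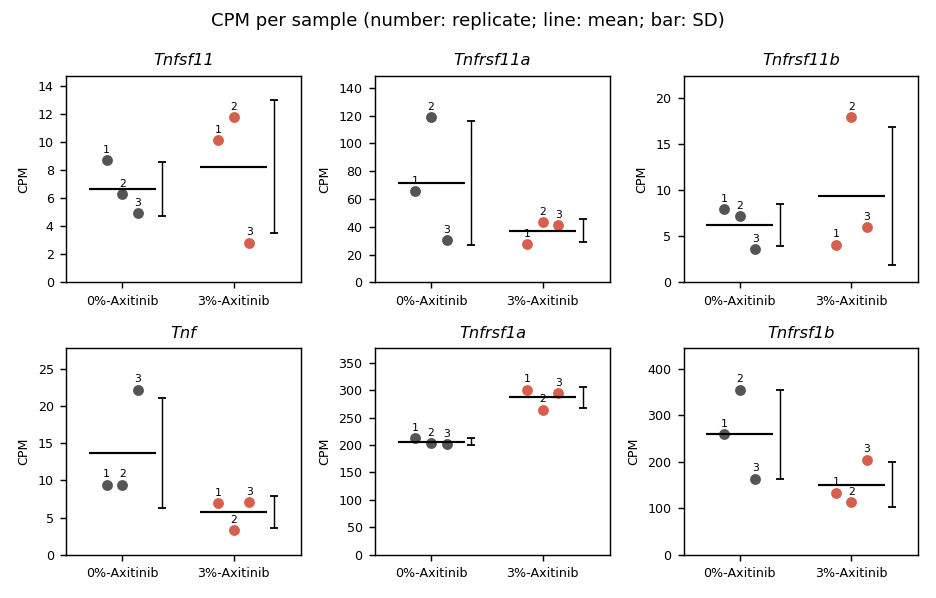
CPM after TMM normalization (vertical axis) of RANKL (Tnfsf11), RANK (Tnfrsf11a), osteoprotegerin (Tnfrsf11b), Tnf and the TNF receptors in each sample of the 0%-Axitinib and 3%-Axitinib groups, with the replicate number above each point, the mean as a line and the SD as a bar (n = 3). Tnf was lower and Tnfrsf1a was higher in each 3%-Axitinib sample than in each 0%-Axitinib sample, and the other genes overlapped between the groups.

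In the RANKL, RANK and osteoprotegerin axis, 0 of 3 genes met the criterion of the quasi-likelihood test, beside 11.8% lower and 9.54% higher of all tested genes. With 3 genes, a count of 0 cannot be set apart from these shares. In this test 0 were at an unadjusted p under 0.05, and DESeq2 and limma-voom gave 0 as well. RANKL (Tnfsf11) was at 8.71, 6.29 and 4.94 CPM in the 0%-Axitinib samples and at 10.1, 11.8 and 2.84 CPM in the 3%-Axitinib samples. The 3%-Axitinib samples held both the highest and the lowest values. The log2 fold change was 0.30 (SE 0.54), and it was -0.05 without 3%-Axitinib replicate 2. Osteoprotegerin (Tnfrsf11b) was at 7.93, 7.16 and 3.64 CPM in the 0%-Axitinib samples and at 4.08, 17.9 and 6.02 CPM in the 3%-Axitinib samples. 3%-Axitinib replicate 2, the sample with the most osteoblast RNA, was the highest for both genes. Osteoprotegerin had a log2 fold change of 0.58 (SE 0.61), and -0.31 without that sample.

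The ratio of RANKL to osteoprotegerin within a library needs no scaling between libraries. As log2 of the counts with 0.5 added to each, it was 0.14, -0.19 and 0.44 in the 0%-Axitinib samples and 1.30, -0.60 and -1.08 in the 3%-Axitinib samples. The 3%-Axitinib samples spanned the 0%-Axitinib samples on both sides. Its mean was 0.13 ± 0.31 without axitinib and -0.13 ± 1.26 with 3% axitinib (SD, n = 3). The difference of -0.25 was within this spread (exact two-sided permutation test, p = 0.8, where 3 samples against 3 allow no p below 0.1), and it became 0.22 when 3%-Axitinib replicate 3 was left out and -0.97 when 3%-Axitinib replicate 1 was.

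RANK (Tnfrsf11a), the receptor of osteoclast precursors that dendritic cells also carry, was at 65.5, 119 and 30.5 CPM in the 0%-Axitinib samples and at 27.4, 43.1 and 41.3 CPM in the 3%-Axitinib samples. 0%-Axitinib replicates 1 and 2 were above all 3%-Axitinib samples, and 0%-Axitinib replicate 3 lay among them. On the log2 scale its fold change was -0.94 (SE 0.47) with an adjusted p of 0.270, and -1.30 with an adjusted p of 0.0491 without 0%-Axitinib replicate 3, both in edgeR's quasi-likelihood test with Benjamini-Hochberg adjustment. It was -0.36 (unadjusted p 0.380) without 0%-Axitinib replicate 2, the highest sample. Without a filter on low counts RANK met the criterion, at -0.98. The 10 dendritic cell genes, of which 6 of 10 tested were lower by the criterion (2 of them past the filter through the 0%-Axitinib group alone), summed to 1543, 2347 and 597 CPM in the 0%-Axitinib samples and to 490, 409 and 903 CPM in the 3%-Axitinib samples. Itgax was the most abundant of them, none was at 0 in all samples, and their part in the values of RANK was not tested. Itgax alone, at 1391, 2248 and 316 CPM in the 0%-Axitinib samples, set the order of this sum, while Zbtb46 and Cd209a were highest of this group in 0%-Axitinib replicate 1, and Flt3, Xcr1, Clec9a, Batf3, Ccr7, Siglech and Fscn1 in 0%-Axitinib replicate 3, where RANK was lowest.

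Of the 14 osteoclast genes, all tested, 2 (14.3%) were lower and 0 were higher by the criterion of the quasi-likelihood test, against 11.8% and 9.54% of all tested genes. The lower count was thus near the background, and the median log2 fold change of the list was -0.48. The integrin subunit gene Itgb3 had a log2 fold change of -1.42 (SE 0.53), and -0.69 without 0%-Axitinib replicate 3. Ostm1, whose protein forms the lysosomal chloride channel complex with Clcn7, had -0.72 (SE 0.23). Ctsk, the collagen-degrading protease of osteoclasts and the most abundant gene of the list, was at 3820, 4717 and 2900 CPM in the 0%-Axitinib samples and at 3547, 4601 and 4365 CPM in the 3%-Axitinib samples, with overlapping groups. When each sample was left out, the count of lower genes in this list lay between 0 and 4, and DESeq2 gave 4 and limma-voom 3, with 0 higher in both.

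The BAFF and APRIL axis, which keeps B cells and plasma cells alive, had 0 of 4 tested genes past the criterion of the quasi-likelihood test, with 0 at an unadjusted p under 0.05, 1 gene past the criterion with DESeq2 and 0 with limma-voom. Of all tested genes, 11.8% were lower and 9.54% higher by the quasi-likelihood test, and DESeq2 gave 1952 and 1617 of 15115. With 4 genes, the counts of the axis cannot be set apart from this background. The receptor TACI (Tnfrsf13b) was at 11.8, 12.2 and 44.4 CPM in the 0%-Axitinib samples and at 8.26, 8.85 and 11.3 CPM in the 3%-Axitinib samples. The 3%-Axitinib samples lay below, by little against 0%-Axitinib replicates 1 and 2 and by more against 0%-Axitinib replicate 3. The log2 fold change of -1.26 (SE 0.55) had an unadjusted p of 0.0567 in the quasi-likelihood test, and it was -0.34 without 0%-Axitinib replicate 3. TACI met the criterion with DESeq2 (-1.27), with total-count scaling (-1.39), without a filter (-1.26), and without 0%-Axitinib replicate 1 (-1.57) or 0%-Axitinib replicate 2 (-1.56). The BAFF receptor Tnfrsf13c did not pass the filter, with 4, 11 and 143 counts in the 0%-Axitinib samples and 1, 3 and 0 counts in the 3%-Axitinib samples. Like Ltb and the B cell genes, it was high in a single library. BCMA (Tnfrsf17), the receptor of plasma cells, had a log2 fold change of -0.59 (SE 0.52).

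The ligands BAFF (Tnfsf13b) and APRIL (Tnfsf13) had log2 fold changes of -0.28 (SE 0.45) and -0.47 (SE 0.58), and the direction of BAFF changed to 0.25 without 0%-Axitinib replicate 3. APRIL met the criterion without that sample, at -0.88 (unadjusted p 0.0480), and was at -0.00056 without 0%-Axitinib replicate 2. Tnfsf13 shares exons with the antisense gene Tnfsf13os, at 88, 104 and 26 counts in the 0%-Axitinib samples and 23, 18 and 47 in the 3%-Axitinib samples, and with the readthrough gene Tnfsfm13, which also shares exons with Tnfsf12. Whether the counting used strand is not given in the sources used here, and reads of these overlapping genes may not be told apart. Of the 10 plasma cell genes, 7 of 9 tested were lower by the criterion (3 of them past the filter through the 0%-Axitinib group alone), and they summed to 403, 977 and 2077 CPM in the 0%-Axitinib samples and to 279, 249 and 246 CPM in the 3%-Axitinib samples. Ighm led this list, no gene of it was at 0 in all samples, and its part in the values of this axis was not tested.

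In the TWEAK axis the receptor met the criterion and the ligand did not, and the difference between their changes was not tested. TWEAK (Tnfsf12), made largely by myeloid cells, was at 48.6, 57.0 and 37.1 CPM in the 0%-Axitinib samples and at 46.1, 52.2 and 51.5 CPM in the 3%-Axitinib samples, with a log2 fold change of 0.07 (SE 0.21) that turned to -0.08 without 0%-Axitinib replicate 3 and to -0.07 with total-count scaling. Its receptor Fn14 (Tnfrsf12a), which is induced in injured tissue, muscle included, was at 40.7, 30.6 and 17.7 CPM in the 0%-Axitinib samples and at 83.8, 53.5 and 55.0 CPM in the 3%-Axitinib samples. All 3%-Axitinib samples were above all 0%-Axitinib samples. Its fitted log2 change was 1.11 (SE 0.34), and it lay between 0.85 and 1.41 when each sample was left out, with the criterion missed only without 3%-Axitinib replicate 1, at 0.86.

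Skeletal muscle RNA was higher in 3%-Axitinib replicates 1 and 3 only. Of the 22 tested muscle genes, 20 were higher by the criterion in the quasi-likelihood test and 1 with limma-voom, and none of the 25 was at 0 in all samples. 3%-Axitinib replicate 2, with a muscle sum of 50.6 CPM that was within the range of the 0%-Axitinib samples had more Ltbr, Tnfrsf12a and Tnfrsf23 than every 0%-Axitinib sample. For Tnfsf9, the other higher member, it lay below 0%-Axitinib replicate 1, and the 3%-Axitinib samples had the same order as in the muscle sum. The part of muscle RNA in these values was not tested. Some Schwann cell, chondrocyte and osteoblast genes were higher as well. The 8 Schwann cell genes, led by Pmp22, summed to 1795, 713 and 320 CPM without axitinib and to 2160, 2178 and 1880 CPM with 3% axitinib. These sums did not overlap. Their order in the 0%-Axitinib group was that of Ltbr, Tnfrsf12a and Tnfrsf23, though Ltbr was nearly equal in replicates 1 and 2. In the 3%-Axitinib group their order was that of Ltbr, and not that of Tnfrsf12a or Tnfrsf23. Of the Schwann cell genes 1 was higher by the criterion in the quasi-likelihood test, 4 with DESeq2 and 5 with limma-voom. In the chondrocyte list, led by Comp, 4 of 8 tested genes were higher, and the sums of 376, 219 and 167 CPM without axitinib overlapped those of 335, 1275 and 486 CPM with 3% axitinib. The osteoblast list, led by Col1a1, had 4 of 10 higher. No gene of these lists found in the table was at 0 in all samples, and their part in the values of the members was not tested. With TMM factors computed without the muscle genes, 10 members were lower and 4 were higher by the criterion, beside 1777 and 1445 of the 15115 tested genes.

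The T cell costimulation axis holds receptors that T cells display after activation and ligands that antigen-presenting cells display, and it had 4 of 9 tested genes lower and 1 higher by the criterion, against 11.8% and 9.54% of all tested genes, so that the higher count was near the background. Of the 4 lower genes, Cd27 and Tnfrsf18 passed the filter through the 0%-Axitinib group alone, and without them 2 of 7 were lower. CD30 ligand (Tnfsf8), found on activated lymphocytes and myeloid cells, was at 16.4, 7.86 and 3.58 CPM in the 0%-Axitinib samples and at 1.32, 1.73 and 1.39 CPM in the 3%-Axitinib samples. Each 3%-Axitinib sample was lower, and 0%-Axitinib replicate 3, the highest sample for the lymphoid genes, was here the lowest of its group. Its log2 fold change was -2.64 (SE 0.60), with an adjusted p of 0.0968 in edgeR's quasi-likelihood test with Benjamini-Hochberg adjustment. The value lay between -3.03 and -1.94 when each sample was left out and met the criterion each time. Its receptor CD30 (Tnfrsf8) was between 0.469 and 2.34 CPM in all samples, with a log2 fold change of -0.11 (SE 0.64) that changed direction in several settings.

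CD27, a receptor of T cells, NK cells and memory B cells, was at 0.730, 1.11 and 11.1 CPM in the 0%-Axitinib samples and at 0.110, 0.456 and 0.405 CPM in the 3%-Axitinib samples. Cd27 was thus lowest in the 3%-Axitinib samples, but the gap to 0%-Axitinib replicates 1 and 2 was small and its counts there were 14 and 19. In the fit its log2 change was -3.65 (SE 1.22), and the criterion was missed at -1.42 when 0%-Axitinib replicate 3 was left out, at -3.29 when 3%-Axitinib replicate 1 was and at -3.83 when 3%-Axitinib replicate 3 was. Limma-voom gave -2.63 and missed it as well. Its ligand Cd70 had 5 counts in 0%-Axitinib replicate 3 and 5 counts in 3%-Axitinib replicate 3, and 0 elsewhere.

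GITR (Tnfrsf18), abundant on regulatory T cells, was at 0.939, 1.05 and 3.15 CPM in the 0%-Axitinib samples and at 0.551, 0 and 0.116 CPM in the 3%-Axitinib samples. These were 18, 18 and 58 counts against 5, 0 and 2 counts, so the groups did not overlap but the 3%-Axitinib values were near the limit of detection. Its log2 fold change was -3.04 (SE 1.03), and the criterion was missed without 0%-Axitinib replicate 3, at -2.28, and without 3%-Axitinib replicate 3, at -2.66. Exons of Tnfrsf18 overlap those of Gm16008 on the other strand. DR3 (Tnfrsf25), the death-domain receptor of T cells for TL1A, was at 13.6, 9.02 and 15.7 CPM in the 0%-Axitinib samples and at 3.31, 2.28 and 8.05 CPM in the 3%-Axitinib samples. Every 3%-Axitinib sample was lower, with 3%-Axitinib replicate 3 close to 0%-Axitinib replicate 2. On the log2 scale its fold change was -1.47 (SE 0.51), and it lay between -2.19 and -1.15 when each sample was left out, with the criterion missed without 0%-Axitinib replicate 1 (-1.43), 0%-Axitinib replicate 3 (-1.29), 3%-Axitinib replicate 1 (-1.29) and 3%-Axitinib replicate 2 (-1.15).

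The only higher gene of this axis was Tnfsf9, the ligand of 4-1BB, at 5.22, 3.26 and 2.34 CPM in the 0%-Axitinib samples and at 15.4, 5.11 and 9.72 CPM in the 3%-Axitinib samples. 3%-Axitinib replicate 2 was just below 0%-Axitinib replicate 1, so the groups overlapped. Its fitted log2 change was 1.48 (SE 0.51), and the criterion was missed without 0%-Axitinib replicate 2 (1.41), 3%-Axitinib replicate 1 (1.04) or 3%-Axitinib replicate 3 (1.496). Its exons overlap those of Gm11110 on the other strand, which had between 17 and 42 counts. The receptor 4-1BB (Tnfrsf9) did not meet the criterion, at a log2 fold change of -0.78 (SE 0.56). CD40 and OX40 (Tnfrsf4), which act on B cells and dendritic cells and on activated T cells, had log2 fold changes of -0.52 (SE 0.98) and -0.36 (SE 0.68), and without 0%-Axitinib replicate 3 these were 0.98 and 0.66.

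Most ligands of T cells in this axis were hardly detected. CD40 ligand (Cd40lg) had 0, 3 and 2 counts in the 0%-Axitinib samples and 0 in each 3%-Axitinib sample. OX40 ligand (Tnfsf4) had at most 19 counts in a sample, GITR ligand (Tnfsf18) at most 13 and TL1A (Tnfsf15) at most 2. In the T cell list, 7 of 9 tested genes were lower and 0 were higher by the criterion of the quasi-likelihood test (median log2 fold change -3.64, with 8 lower by DESeq2 and 3 by limma-voom; 2 of the 7 passed the filter through the 0%-Axitinib group alone), and Cd3d, the most abundant gene, was at 0.0522, 1.57 and 66.7 CPM in the 0%-Axitinib samples and at 0.110, 0 and 0 CPM in the 3%-Axitinib samples. Cd8a and Cd8b1 were at 0 in all 3%-Axitinib samples, and no gene of the list was at 0 in all 6 samples. The NK cell list, led by Nkg7, had 9 of 9 genes lower by the criterion (3 by limma-voom), of which 4 passed the filter through the 0%-Axitinib group alone, and summed to 13.7, 40.4 and 196 CPM in the 0%-Axitinib samples and to 5.51, 5.66 and 7.70 CPM in the 3%-Axitinib samples. The part of these cells in the values of Cd27, Tnfrsf18 and Tnfrsf25 was not tested.

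Mast cell genes were lower too. All 9 of the list were tested and lower by the criterion (median log2 fold change -3.15, with 8 lower by DESeq2 and 8 by limma-voom). Of all tested genes, 11.8% were lower and 9.54% were higher. The groups overlapped for none of the 9, while 16.7% of all tested genes were lower without overlap. The filter was passed through the 0%-Axitinib group alone by 2 of the 9, so that it largely set their direction and separation. The mast cell sums were 130, 199 and 326 CPM without axitinib and 15.9, 13.4 and 69.1 CPM with 3% axitinib. Tpsab1 was the most abundant. The 10 adipocyte genes, led by Fabp4, summed to 812, 782 and 1003 CPM without axitinib and to 663, 343 and 461 CPM with 3% axitinib, also without overlap, with 3 lower and 1 higher by the criterion (8 and 0 with limma-voom). Of the 3 lower genes, Lep passed the filter through the 0%-Axitinib group alone, and 2 of the other 9 genes were lower. No gene of either list was at 0 in all samples, and the part of mast cell and adipocyte RNA in the values of the members was not tested.

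Among the death ligands and receptors, 3 of 7 tested genes were lower and 1 was higher by the criterion (11.8% and 9.54% of all tested genes). TRAIL (Tnfsf10), the ligand that engages the death receptor Tnfrsf10b, was at 16.1, 7.33 and 19.8 CPM in the 0%-Axitinib samples and at 1.65, 2.10 and 1.74 CPM in the 3%-Axitinib samples. All 3%-Axitinib samples were close to each other and far below all 0%-Axitinib samples. Mean levels were 14.4 ± 6.39 CPM without axitinib and 1.83 ± 0.237 CPM with 3% axitinib (SD, n = 3), and the fitted level was 7.85-fold lower. Its fitted log2 change was -2.97 (SE 0.44), with an adjusted p of 0.0957 in edgeR's quasi-likelihood test with Benjamini-Hochberg adjustment. It was -2.68 without 0%-Axitinib replicate 3, with an adjusted p of 0.0347 in the same test, and it met the criterion in all settings tried.

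The receptor DR5 (Tnfrsf10b) was at 13.4, 9.49 and 7.93 CPM in the 0%-Axitinib samples and at 4.96, 6.84 and 3.42 CPM in the 3%-Axitinib samples. It was thus lower together with its ligand, without overlap. In the fit its log2 change was -1.02 (SE 0.37), and the criterion was missed without 0%-Axitinib replicate 1 (-0.78), 0%-Axitinib replicate 2 (-1.07), 3%-Axitinib replicate 1 (-1.01) or 3%-Axitinib replicate 3 (-0.80). DR6 (Tnfrsf21), a death receptor of neurons and immune cells, was at 63.9, 80.8 and 67.3 CPM in the 0%-Axitinib samples and at 39.1, 24.5 and 54.1 CPM in the 3%-Axitinib samples. The groups did not overlap, and the 3%-Axitinib samples varied more. DR6 had a fitted log2 change of -0.85 (SE 0.30), and the criterion was missed without 0%-Axitinib replicate 2 (-0.74), 3%-Axitinib replicate 1 (-0.84) or 3%-Axitinib replicate 2 (-0.60).

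Endothelial genes were lower as well. Of the 16 endothelial genes, all tested, 13 were lower and 0 were higher by the criterion of the quasi-likelihood test, with a median log2 fold change of -1.30, and DESeq2 and limma-voom gave 13 and 11 lower and 0 higher. They summed to 1572, 1009 and 1486 CPM in the 0%-Axitinib samples and to 518, 753 and 808 CPM in the 3%-Axitinib samples. The groups were thus apart, as for TRAIL, and 16.7% of all tested genes were lower without overlap. Within the 0%-Axitinib group, TRAIL and this sum were lowest in replicate 2. Within the 3%-Axitinib group, TRAIL was highest in replicate 2 and the sum in replicate 3. DR5 was lowest of the 0%-Axitinib group in replicate 3, where the endothelial sum was high. Plvap was the most abundant gene of the list, none was at 0 in all samples, and the part of endothelial RNA in these values was not tested. Of the 12 macrophage genes, 0 met the criterion in either direction by the quasi-likelihood test, DESeq2 or limma-voom, with 0 at an unadjusted p under 0.05 (median log2 fold change 0.04), and their sums were 11734, 12288 and 8740 CPM in the 0%-Axitinib samples, and they were 8521, 10979 and 16976 CPM in the 3%-Axitinib samples.

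Tnfrsf23, a decoy receptor for TRAIL in mice, was at 20.3, 18.8 and 9.50 CPM in the 0%-Axitinib samples and at 49.6, 42.5 and 33.2 CPM in the 3%-Axitinib samples. All 3%-Axitinib samples were above all 0%-Axitinib samples. Its log2 fold change was 1.36 (SE 0.33), with an adjusted p of 0.0981 in edgeR's quasi-likelihood test with Benjamini-Hochberg adjustment, and between 1.09 and 1.56 when each sample was left out, past the criterion each time. It lies in a cluster of related genes on chromosome 7 (chr7:143665809-143685872, GRCm38) beside Tnfrsf22 and Tnfrsf26, which had log2 fold changes of 0.22 (SE 0.34) and -0.40 (SE 0.45). Reads that match several copies may be split or lost between these paralogs, and exons of Tnfrsf23 and Tnfrsf26 overlap a gene on the other strand, so their values are uncertain. TRAIL and DR5 were lower and this decoy receptor was higher by the criterion, and the difference between these changes was not tested.

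Fas, the receptor of Fas ligand, had a log2 fold change of 0.47 (SE 0.30) with overlapping groups. Fas ligand (Fasl), made by NK cells and T cells, did not pass the filter, with 3, 23 and 50 counts in the 0%-Axitinib samples and 0, 0 and 3 counts in the 3%-Axitinib samples. Its counts rose over the 0%-Axitinib samples in the order of the NK cell sum, an order that the B cell, plasma cell, T cell, neutrophil and mast cell sums shared. The part of these cells in the counts of Fasl was not tested.

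**Figure D3:**
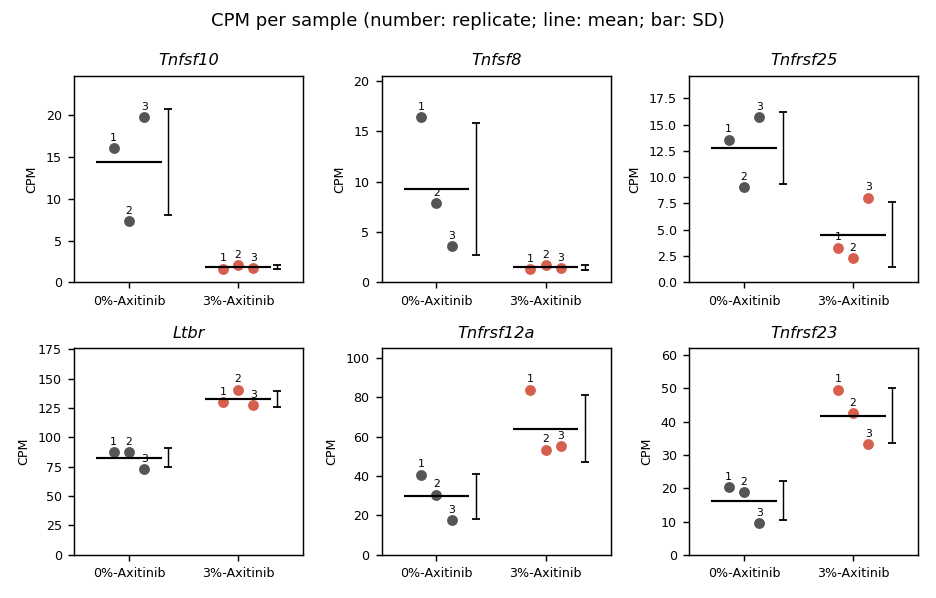
CPM after TMM normalization (vertical axis) of 6 members past the criterion in each sample of the 0%-Axitinib and 3%-Axitinib groups, with the replicate number above each point, the mean as a line and the SD as a bar (n = 3). Tnfsf10, Tnfsf8 and Tnfrsf25 were lower and Ltbr, Tnfrsf12a and Tnfrsf23 were higher in each 3%-Axitinib sample than in each 0%-Axitinib sample.

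The ectodysplasin axis, which shapes hair, teeth and sweat glands, had 0 of 3 tested genes past the criterion of the quasi-likelihood test, with 0 at an unadjusted p under 0.05 in this test, DESeq2 or limma-voom. Beside 11.8% lower and 9.54% higher of all tested genes by the criterion, a count of 0 among 3 cannot be set apart from the background. The ligand Eda had a log2 fold change of 0.87 (SE 0.47), and its receptor Eda2r had 0.02 (SE 0.55). Edar had at most 8 counts in a sample. Tnfrsf19 (TROY) was at 1.04, 0.873 and 10.0 CPM in the 0%-Axitinib samples and at 6.17, 23.0 and 4.23 CPM in the 3%-Axitinib samples. 0%-Axitinib replicate 3 lay among the 3%-Axitinib samples, and without it the log2 fold change of 1.48 (SE 1.08) became 3.52 and met the criterion. Without 3%-Axitinib replicate 2, the highest sample, it was 0.39 (unadjusted p 0.733).

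Genes downstream of the receptors were counted in the same way, beside 11.8% lower and 9.54% higher of all tested genes. In the list of 29 adaptors and proximal signalling genes, 7 were lower and 1 was higher by the criterion, with a median log2 fold change of -0.31. Total-count scaling gave 11 and 0, and leaving out each sample gave between 5 and 7 lower and between 1 and 3 higher. Edaradd, the adaptor of Edar, had a log2 fold change of -1.24 (SE 0.47), and Tab3 and Tab2, which link TRAF proteins to the kinase TAK1, had -1.01 (SE 0.30) and -0.83 (SE 0.18). Cyld, a deubiquitinase that restrains NF-kB signalling, was at 43.1, 46.3 and 62.7 CPM in the 0%-Axitinib samples and at 25.8, 27.5 and 29.1 CPM in the 3%-Axitinib samples, without overlap. The lower genes were thus not all activators. The others were Tank, Traf3 and Birc2, with log2 fold changes of -0.81 (SE 0.23), -0.73 (SE 0.21) and -0.72 (SE 0.29). Tab1, another partner of TAK1, was the gene that was higher, with a log2 fold change of 0.63 (SE 0.18).

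Among 17 genes of NF-kB subunits, kinases and inhibitors, 5 were lower and 0 were higher by the criterion of the quasi-likelihood test, with a median log2 fold change of -0.41, and DESeq2 and limma-voom gave the same counts, with 1 gene higher at an unadjusted p under 0.05 in each test. Leaving out each sample gave between 3 and 6 lower and between 0 and 1 higher. The subunit c-Rel (Rel), most abundant in lymphoid and myeloid cells, was at 22.0, 31.8 and 26.1 CPM in the 0%-Axitinib samples and at 10.4, 11.2 and 9.61 CPM in the 3%-Axitinib samples. The 3%-Axitinib samples lay close together below all 0%-Axitinib samples. Its log2 fold change was -1.36 (SE 0.23), and -1.37 without 0%-Axitinib replicate 3. The IKK kinases Chuk and Ikbkb had log2 fold changes of -1.07 (SE 0.23) and -0.74 (SE 0.23), and the feedback inhibitor Tnfaip3 (A20) had -0.91 (SE 0.36). Rela, the most abundant gene of the list, did not meet the criterion, at a log2 fold change of 0.36 (SE 0.20).

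Of the 24 TNF and NF-kB response genes, 21 were tested, and 4 were lower and 2 were higher by the criterion (3 and 3 with DESeq2, 1 and 1 with limma-voom). When each sample was left out, these counts lay between 1 and 6 and between 1 and 4. Cxcl10, Ccl5 and Il1b, inflammatory cytokines, had log2 fold changes of -3.55, -2.63 and -2.10 with all samples and -1.31, -0.56 and -0.97 without 0%-Axitinib replicate 3. Vcam1, an adhesion molecule of activated endothelium, was at 69.6, 74.9 and 220 CPM in the 0%-Axitinib samples and at 24.2, 38.7 and 14.2 CPM in the 3%-Axitinib samples. It was lower in each 3%-Axitinib sample, and its log2 fold change was -2.24 (SE 0.57), or -1.50 without 0%-Axitinib replicate 3. Saa3, an acute phase protein, was at 20.4, 18.9 and 42.2 CPM in the 0%-Axitinib samples and at 579, 289 and 63.3 CPM in the 3%-Axitinib samples. All 3%-Axitinib samples were higher, by a log2 fold change of 3.52 (SE 0.80), while the chemokine gene Ccl2 had 0.92 (SE 0.38). The response genes therefore did not move in a single direction.

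Of the 5 shedding genes, the protease gene Adam10 was lower, with a log2 fold change of -0.62 (SE 0.19), and the iRhom gene Rhbdf1 was higher, with 1.02 (SE 0.34). These counts of 1 lay between 1 and 2 and between 0 and 1 when each sample was left out. Among the 9 response genes of the lymphotoxin beta receptor, 2 passed the filter and 0 met the criterion of the quasi-likelihood test, with 0 at an unadjusted p under 0.05 in this test, DESeq2 or limma-voom. With a sample left out, at most 1 was lower and at most 1 was higher. The B cell chemokine Cxcl13, tested along with Tnfaip2, was at 277, 130 and 62.9 CPM in the 0%-Axitinib samples and at 606, 95.8 and 355 CPM in the 3%-Axitinib samples. The groups overlapped, and 3%-Axitinib replicate 2 was low. Ccl21b and Chst4 were at 0 in all samples.

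Since several members lay lower together, their promoters were searched for the letters of an NF-kB site and of an interferon response element. RefSeq sequences (GRCm38.p6) of the 250 bases before the RefSeq gene start were searched and matched by symbol for 34 of the 45 members. The NF-kB letters GGANTTTCC were searched on both strands and occurred in 1.07% of 32851 promoters, among members in that of Ltb. The interferon response letters AAANNGAAA occurred on either strand in 9.37% of these promoters, among members in those of Edar, Tnfrsf14, Tnfrsf17, Tnfrsf1b, Tnfrsf4, Tnfsf10 and Tnfsf13b. A match is a description and not a bound site. Both sets of letters were picked after the expression values were known, and they were shortened by one base after longer versions, which matched fewer promoters, had been run. The promoters of Ltb and Tnfrsf1b are shown because each holds such a match within 19 bases of its start and each had its highest sample in the 0%-Axitinib group. They were thus picked with matches and expression values known. Tnfrsf1b missed the criterion, while Tnfsf10 and Tnfrsf14, which met it and also hold a match, are not shown. Both printed promoters are given 5′ to 3′ on the strand of the gene, with the matched letters, which read on the opposite strand, in capitals. That of Ltb lies at chr17:35194257-35194438 on the plus strand, is cut to the 182 bases before the GENCODE gene start, and its match starts 19 bases before the gene. That of Tnfrsf1b lies at chr4:145246871-145247120 on the minus strand, and its match starts 10 bases before the gene.
Ltb: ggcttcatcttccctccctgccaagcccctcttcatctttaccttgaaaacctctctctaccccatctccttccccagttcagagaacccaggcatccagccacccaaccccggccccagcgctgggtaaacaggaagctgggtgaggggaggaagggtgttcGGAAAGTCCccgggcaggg
Tnfrsf1b: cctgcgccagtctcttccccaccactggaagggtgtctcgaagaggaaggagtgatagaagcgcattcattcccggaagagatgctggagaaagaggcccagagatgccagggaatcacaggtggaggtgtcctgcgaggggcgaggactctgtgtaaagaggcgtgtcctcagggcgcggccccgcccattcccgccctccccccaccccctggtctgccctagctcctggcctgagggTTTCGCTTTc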

How the data were processed

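RNA was sequenced from 3 samples of each group with an Illumina TruSeq library kit. The authors filtered the reads with fastp, aligned them with STAR 2.5.2b to mm10 (per the labels) and deposited raw read counts per gene symbol. The annotation release and the strand setting of the counting are not given in the sources used here. Of the 48444 lines, 4 held reads assigned to no gene and were left out of library sizes and tests.

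Here, genes with at least 10 counts in 3 or more samples were kept, libraries were normalized with TMM, and groups were compared with edgeR 4.0.16 in R 4.3.3 (quasi-likelihood test, Benjamini-Hochberg adjustment over 15115 genes). CPM, fold changes and exact permutation tests were computed from the deposited counts. Gene lengths and positions came from GENCODE (GRCm38), matched by symbol for all 45 members. Values in every sample were given for RANKL, RANK, osteoprotegerin, Tnf, both TNF receptors and all tested members past the criterion, and for further members where a single sample set their values. Members and lists were chosen with earlier results of these data known. Alternatives covered normalization, filter, test (DESeq2 1.42.0, limma-voom with limma 3.58.1), the replicate block and each sample left out. The tests were tried on simulated data. Figures were drawn with matplotlib 3.10.9.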

Additional observations from a re-analysis of the deposited data

How the results depend on the processing

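With DESeq2's Wald test, 9 members passed an adjusted p of 0.05, in place of 0 with edgeR's quasi-likelihood test. The cause was not tested. When each sample was left out, the count of lower members by the criterion lay between 4 and 9, that of higher members between 2 and 6, and that of members past the adjusted threshold between 0 and 4. The difference in the RANKL to osteoprotegerin ratio lay between -0.97 and 0.22 in these settings. Of the 37 log2 fold changes, 37 kept their direction and their side of the criterion with RLE normalization, with TMM without the muscle genes and with filterByExpr, 34 with DESeq2's Wald test, 34 without a filter, 32 with total-count scaling and 28 with limma-voom. Each log2 fold change that turned was smaller with all samples than its standard error.

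Limma-voom turned the log2 fold changes of Tnfrsf8 (0.18), Tnfrsf4 (0.030), Tnfsf11 (-0.047), Lta (0.21), Tnfsf14 (0.25) and Eda2r (-0.0022). Total-count scaling turned Tnfsf12 (-0.066) and Eda2r (-0.11), and the absence of a filter turned Eda2r (-0.021). With a sample left out, the log2 fold change ranged from -1.50 to 0.98 for Cd40, from -0.51 to 0.57 for Tnfrsf8, from -0.77 to 0.66 for Tnfrsf4, from -0.69 to 0.24 for Tnfrsf26, from -0.0063 to 0.49 for Tnfrsf22, from -0.66 to 0.25 for Tnfsf13b, from -0.081 to 0.22 for Tnfsf12, from -0.054 to 0.71 for Tnfsf11, from -0.31 to 0.92 for Tnfrsf11b, from -0.89 to 0.74 for Lta, from -1.52 to 1.84 for Tnfsf14 and from -0.49 to 0.50 for Eda2r. The cause was not tested.

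The replicate numbers did not pair the samples: deviations of same-numbered samples had Pearson correlations of 0.19, -0.11 and -0.18 across genes, which are not independent replicates. With the replicate number as a block, 9 members were lower, 4 were higher and 0 were past the adjusted threshold, beside 1356, 1239 and 2 of the 15115 tested genes, and the log2 fold changes of Tnfrsf8 (0.049), Lta (0.022) and Tnfsf14 (0.56) turned. The block left the difference in the RANKL to osteoprotegerin ratio at -0.25 (exact p = 0.75).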
